A study of Mus musculus with 9 samples.

Results

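The distal stretch of mouse chromosome 6 was taken as every annotated transposable element (TE) copy that starts at or beyond 110 Mb on the mm10 assembly. It held 10239 of the 623916 copies in the table, from chr6:110004005 to chr6:149586362, a length of 39.6 Mb. The other autosomes held 565581 copies, and chromosome 6 before 110 Mb held 18991. The stretch had been chosen on measured values of these same libraries, taken here to be the difference of G4 from WT along chromosome 6. Values that involve G4 are therefore a description: where features past the threshold of the fit are counted in G4, the share over all tested features stands beside the count and nothing is read from it. The comparison of G1 with WT was tested. The same 3 WT libraries enter both differences, so the G1 comparison is not fully independent of the choice.

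The series comprises 9 RNA-seq libraries of C57BL/6 mouse embryonic stem cells (ESCs), 3 for each of 3 groups. WT ESCs carry an intact Terc gene, which encodes the RNA template of telomerase. G1 Terc-/- ESCs, the first generation without Terc, came from blastocysts of Terc+/- intercrosses, and G4 Terc-/- ESCs came from blastocysts of crosses between third-generation Terc-/- mice, in which telomeres have shortened further with each generation. All cells had been grown on feeder fibroblasts that were removed before freezing, and the methods of the study speak of biological replicates of each line in a number other than that of the libraries labelled here, so the p-values measure the spread between these libraries, which may be technical. No TE copy overlapped Terc, so the deletion itself could not be checked in this table.

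TEs are repeated sequences that were copied through the genome, mostly through an RNA step. Short interspersed elements (SINEs, such as B1, B2 and ID) often sit in the introns and 3' untranslated regions (UTRs) of genes and are then transcribed as part of the gene's own RNA. Elements with long terminal repeats (LTRs), such as the early transposons MMETn, carry their own promoters, and many LTR elements are held silent in ESCs largely by histone methylation. Not all are: some MMETn copies of the stretch had high counts in WT as well. The stretch holds the pluripotency cluster with Nanog, a homeobox factor that sustains self-renewal, its neighbours Dppa3, Gdf3, Apobec1 and Slc2a3, and, further along, a large family of natural killer receptor and lectin genes. Reads at a copy inside an exon therefore report mainly on whether the surrounding gene is transcribed, and gene values below are sums over the copies that lie for at least 0.5 of their length in the exons of a gene, not full gene expression.

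The promoter of Nanog is shown because the copies in its 3' UTR are among those with the most counts in the stretch and rose in G1. The 250 bases before the RefSeq start lie on the plus strand of GRCm38, at chr6:122707239-122707488. The capitals mark the letters TTTGCATTACAATG, 7 letters of a POU-type octamer (TTTGCAT) followed after 1 base by an HMG-box type motif (ACAATG), 75 to 62 bases before the start.
Nanog promoter: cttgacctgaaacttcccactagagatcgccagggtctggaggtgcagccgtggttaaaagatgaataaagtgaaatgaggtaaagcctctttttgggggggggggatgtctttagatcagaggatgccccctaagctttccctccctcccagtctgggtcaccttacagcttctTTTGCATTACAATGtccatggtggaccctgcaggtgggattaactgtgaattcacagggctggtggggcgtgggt
The letters TTTGCAT were found on either strand in 1520 of 32851 RefSeq promoter entries of 300 bases (4.63%) and in 41 of the 672 entries of the stretch (6.10%). The joined letters as they stand in the Nanog promoter, with 1 base left free, were found on either strand in 2 entries, both of Nanog. Variants of the 2 motifs were not searched, so this does not show that such a pair is particular to Nanog. Of the 97 tested genes of the stretch 59 had a promoter entry, and 3 of these, Apobec1, Nanog and Atf7ip, held the letters TTTGCAT. These are matches of letters only, since binding was not measured.

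A TE copy whose own sequence could be read is the MT2B1 element in the non-coding exon of Gm10069, at chr6:128473391-128473664 on the plus strand. MT2 elements are LTRs of the MERVL group, which is known for its transcription in the early embryo. The copy is shown, after its values were seen, as the example of an LTR that makes up transcribed exon sequence in the stretch.
MT2B1 in Gm10069: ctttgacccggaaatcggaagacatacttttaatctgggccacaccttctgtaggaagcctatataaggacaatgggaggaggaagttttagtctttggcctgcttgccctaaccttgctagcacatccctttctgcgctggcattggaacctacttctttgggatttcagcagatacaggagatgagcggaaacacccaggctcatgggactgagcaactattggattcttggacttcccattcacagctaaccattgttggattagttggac
Its level, in TMM-scaled counts divided by the library's effective total times 1e6 (CPM), was 4.17, 2.09 and 3.84 in the WT libraries, 1.04, 7.09 and 0 in G1 and 20.9, 26.5 and 34.1 in G4. WT and G1 overlapped, and all 3 G4 libraries were higher.

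The 9 libraries held between 918879 and 1137257 counts in TE copies, and 2.46% of all counts fell in the stretch. Of its 10239 copies 6170 (60.3%) were SINEs, 2228 LTR elements, 1479 LINEs and 362 DNA elements, of 584 repeat names. By place, 999 copies were exonic, 6760 intronic, 1318 within 5 kb of a gene and 1162 farther away. Most copies were nearly silent at this depth: 70.6% had under 5 counts over the 9 libraries together, against 69.9% on the other autosomes, and only 98 averaged 20 counts or more in a library. LTR elements took 50.8% of the counts of the stretch and 32.5% of those on the other autosomes. A single MMETn-int copy in an intron of Efcab12 held 25.5% of the counts of the stretch, and without it LTR elements took 34.0%. This copy lies on the strand opposite to Efcab12, and also within the antisense gene Gm44206 on the copy's own strand. The 1 exonic copy of Efcab12 had at most 2 counts in a library. The filter on low counts left 221 of the copies, 132 of them exonic, 47 intronic, 17 near a gene and 25 far from genes, out of 13022 tested in all. Copies that are high in 1 group pass this filter more easily, so counts of calls below are given for these 221 and not for the stretch as a whole. Of the 125 tested copies in the exons of a single gene, 74 lay on the strand of the gene and 51 on the opposite strand, and reads from the strands cannot be told apart here.

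The cell types were checked through exonic copies of marker genes. Pou5f1 and Sox2 could not be read this way, as only 7 of 15 ESC markers had exonic copies. Their summed level, Nanog included, ranged over 7449 to 7987 CPM in WT, 11462 to 12293 in G1 and 24178 to 28380 in G4. Of the 6 tested ESC markers 5, Nanog among them, rose in G1, where 3.95% of all genes tested rose. The sum over primitive endoderm markers went the other way, with 4477 to 4600 CPM in WT, 1950 to 2086 in G1 and 144 to 180 in G4 over 7 of 13 genes. In G1 4 of 5 tested (Col4a2, Gata4, Sox7 and Pdgfra) fell, where 7.37% of all genes tested fell, while Sparc was not called. Most of this sum came from Col4a2 (3440 to 3543 CPM in WT). Sparc was higher in G4, at 36.3 to 52.1 CPM against 8.33 to 13.6 in WT. The feeder fibroblast list had exonic copies in 5 of 15 genes and summed to 4979 to 5271, 2552 to 2576 and 601 to 667 CPM, almost all of it from Loxl2, whereas Col1a1 rose from 33.4 to 49.9 CPM in WT to 62.7 to 73.0 in G1 and Dcn was at 0 in all but 1 library. The 2-cell-like list, read in 3 of 15 genes, lay at 0 to 2.09 CPM in WT, at 0 in every G1 library and at 17.1 to 30.8 in G4. In bulk RNA, fewer cells of a type and less RNA per cell cannot be told apart. These marker levels moved with the values of Nanog and of the stretch below, and their part in those results was not tested.

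The stretch took a larger share of autosomal TE counts in G1 and in G4 than in WT. The share was 2.28, 2.17 and 2.14% in the WT libraries, 2.31, 2.73 and 2.75% in G1 and 2.77, 2.91 and 2.92% in G4. All G1 libraries lay above all WT libraries, G1 replicate 1 only narrowly so, and all G4 libraries lay above both other groups. The mean rose from 2.19% ± 0.07 (SD, n = 3) to 2.59% ± 0.25 in G1, a difference of 0.40 percentage points with p = 0.1 in a two-sided exact permutation test, which is the smallest value 3 against 3 libraries allow. For G4 the mean was 2.87% ± 0.08.

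A single MMETn-int copy in an intron of Efcab12 was low in that same G1 library. Its level was 3954 CPM in G1 replicate 1 against 8174 and 8152 in the other G1 libraries. Without this copy the share was 1.58, 1.53 and 1.55% in WT, 1.90, 1.90 and 1.94% in G1 and 2.23, 2.33 and 2.29% in G4, so that the groups stood far apart compared with the spread within them. Leaving out the 20 copies with the most counts left group means of 0.99, 1.11 and 1.24%, and the difference of G1 from WT fell by a factor of over 3. The WT share fell as well, and the G1 mean was 1.12-fold of WT, against 1.18-fold for all copies. Exonic copies went from a mean share of 1.53% in WT to 2.04% in G1 and 2.57% in G4. Copies over 5 kb from any gene went from 3.78% to 4.53% and 6.18%, and from 1.19% to 1.45% and 1.93% without the 6 tested MMETn-int copies among them. Intronic copies were at 2.85, 3.06 and 3.01% and their groups overlapped (exact permutation p = 0.6 for G1 against WT). They held 44.9% of the counts of the stretch, and the Efcab12 copy, kept in this share, held 25.5%. The intronic share without it was not computed. As single copies, 6 of 47 tested intronic and 8 of 132 exonic copies rose in G1 (2.49% of all tested copies). Their median log2 fold changes were 0.31 and 0.15, against 0.11 and -0.05 on the other autosomes. Chromosome 6 before 110 Mb differed from the stretch: its share was 2.59 to 2.62% in WT, 2.58% in G1 (exact permutation p = 0.3) and 1.77% in G4.

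**Figure D1:**
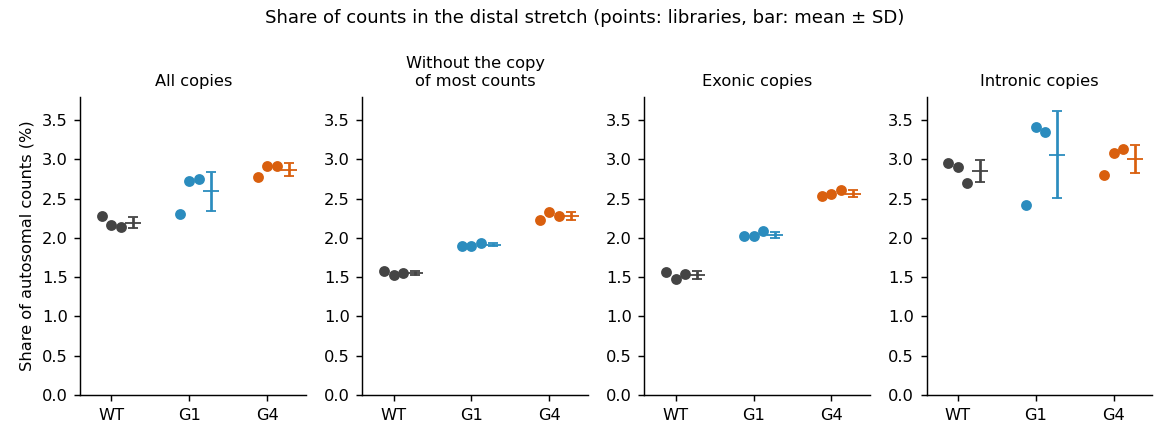
Share of autosomal TE counts in the distal stretch of chromosome 6 (percent, vertical axis) in each library of WT, G1 and G4 Terc-/- ESCs, for all copies, without the MMETn-int copy with the most counts, and for exonic and intronic copies; points are libraries and bars are the mean ± SD of 3. The G1 libraries lie between WT and G4 without that copy (1.90 to 1.94%) and among exonic copies, while intronic copies, which include that copy, overlap between groups.

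By named parts, the summed level of the stretch went from 21338 ± 1094 CPM in WT to 25204 ± 2807 in G1 and 27026 ± 121 in G4 (exact permutation p = 0.2 for G1 against WT). WT and G1 overlapped in this sum, with G1 replicate 1 at 21989 CPM and WT replicate 1 at 22572. The 3 copies in the 3' UTR of Nanog gave 1301 CPM for WT, 2172 for G1 and 3834 for G4, so they made up 871 of the 3867 CPM by which G1 exceeded WT. The 9 exonic copies of Etnk1 added 384 CPM, the 10 of Bcat1 148 and the 18 MMETn-int copies other than that in Efcab12 611. The Efcab12 copy itself added 442 CPM, with WT and G1 overlapping (exact permutation p = 0.8). The remaining 10198 copies summed to 10500 ± 544 CPM for WT, 11910 ± 440 for G1 and 12518 ± 681 for G4, and here the G1 libraries lay above the WT libraries (exact permutation p = 0.1).

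Along the chromosome, 2 of the 4 windows of 10 Mb rose in G1, where 29.9% of the 291 windows of the genome were called in either direction. The window from 120 Mb, which holds Nanog, went from 7222 ± 157 to 9316 ± 164 CPM (by edgeR's quasi-likelihood test, log2 fold change 0.37, SE 0.03, adjusted p = 5.9e-09). The last window, from 140 Mb, went from 3119 ± 199 to 3982 ± 153 CPM (0.35, SE 0.05, adjusted p = 1.4e-05). The window from 130 Mb was at 1862 ± 142 and 1970 ± 154 CPM (0.08, SE 0.07, adjusted p = 0.44). The window from 110 Mb stood at 0.12 on that scale (SE 0.10, adjusted p = 0.43), with 67.3% of its counts in the Efcab12 copy, and 0.17 (SE 0.06, adjusted p = 0.039) without that copy. The rise of the summed counts was thus not even over the stretch. The median over tested copies of the log2 fold change in G1 was 0.04, 0.20, 0.25 and 0.34 in the 4 windows in order.

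For G4 the copy medians were 0.49, 0.22, 0.06 and 0.35 in the same windows, and all 11 windows before 110 Mb had medians between -0.36 and -1.23. Summed over windows, 2 of 4 were past the threshold against WT (66.7% of all windows) and 2 of 4 against G1 (60.8%). Per library, the median of log2 CPM minus the WT mean over the tested copies of the stretch was 0.10, 0.26 and 0.25 in G1 and 0.26, 0.25 and 0.20 in G4, while over chromosome 6 before 110 Mb it was -0.64, -0.73 and -0.73 in G4. On the near side of the boundary the last 5 tested copies had log2 fold changes in G4 of -1.40 and -1.29 (both in exons of Sumf1), -0.75, 0.29 and -0.9997. The first 5 inside, all within 5 kb of Rad18, had 0.54, 0.15, 0.22, 0.67 and 0.27. No copy between chr6:109592572 and chr6:112615587 was tested, so the values do not place a boundary within that interval.

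**Figure D2:**
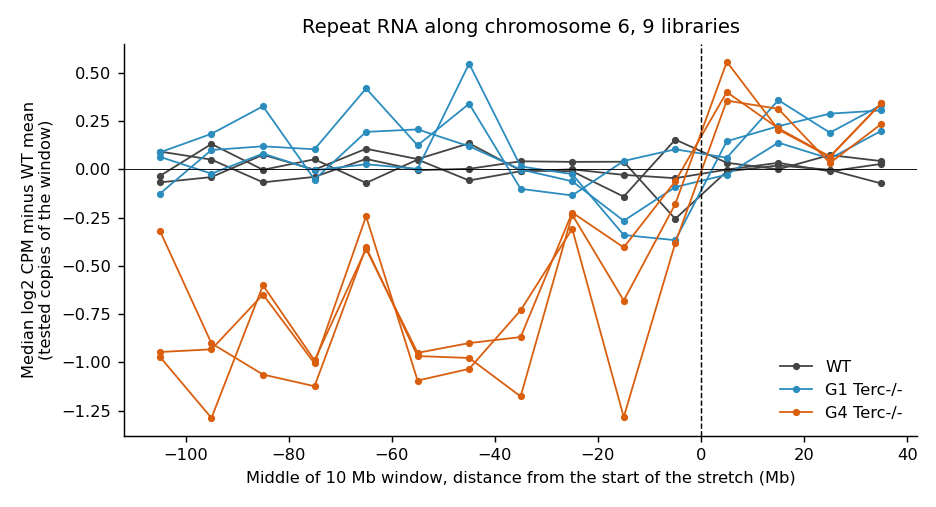
Median over tested copies of log2 CPM minus the mean of the WT libraries (vertical axis) in windows of 10 Mb along chromosome 6, against the distance of the window's middle from the start of the stretch (horizontal axis, Mb; dashed line at the start); each line is 1 library. The G4 libraries lie below all WT libraries in every window before the line but the last, and above 0 in all 4 windows after it.

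Set beside the last 39.6 Mb of the other autosomes, the distal end of chromosome 6 had the highest copy median in G1 among 19 (0.17, range -0.06 to 0.17) and the highest share of copies that rose, 8.14% against 7.52% for the next, chromosome 13. In G4 against WT it ranked the second by median and the fifth by share of rises. These ranks are a description, as the stretch was picked for its values.

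At the level of single copies, 18 of 221 rose and 1 fell in G1 against WT, while over all tested copies 2.49% rose and 4.46% fell. The median log2 fold change was 0.17 in the stretch and 0.01 over the 11932 tested copies of the other autosomes. The 18 copies lay at only 7 places when copies within 10 kb were joined, so they are not 18 separate observations: 7 in Nanog, 4 around an MMETn element, 2 in Bcat1, 2 in Resf1, and 1 each in Etnk1, Ybx3 and Pde3a. Without each library in turn 10 of the 18 were called every time and 8 were lost at least once. The 2 copies in Resf1, at 149335040 and 149335210, were lost in 5 and 6 of 6 such fits (adjusted p up to 0.23 and 0.16), and the L2c copy in Bcat1 in 4 of 6 (up to 0.14). In all 18 the G1 libraries lay above the WT libraries without overlap. The copies were picked by their call in this same comparison, so this is no further evidence. By class, 10 of 133 SINEs, 5 of 46 LTR elements and 3 of 30 LINEs rose, and none of 12 DNA elements was called. On the other autosomes more SINEs fell (218 of 5929) than rose (78).

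Nanog had the lowest adjusted p among these genes. Its 3' UTR holds 3 tested SINEs on the strand opposite to the gene. The B2_Mm1a copy at chr6:122713626-122713812 was at 466, 475 and 548 CPM in WT, 946, 758 and 823 in G1 and 1143, 1202 and 1247 in G4. The B1_Mus2 copy at chr6:122713841-122713990 was at 448, 520 and 555 CPM in WT, 909, 790 and 870 in G1 and 1489, 1731 and 1807 in G4. The ID4_ copy at chr6:122714017-122714093 was at 292, 304 and 295 CPM in WT, 476, 474 and 471 in G1 and 772, 1033 and 1077 in G4. At each of the 3 copies the groups were separate and in the order WT, G1, G4.

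The log2 fold changes in G1 were 0.76 (SE 0.09, adjusted p = 3.9e-06), 0.75 (SE 0.09, adjusted p = 5.4e-06) and 0.67 (SE 0.11, adjusted p = 0.00015). As a sum the exonic copies of Nanog rose 1.67-fold in G1 (log2 fold change 0.74, SE 0.07, adjusted p = 5.9e-12), and this call held when each library was left out in turn. In G4 the folds over WT were 2.41, 3.30 and 3.24 for the 3 copies and 2.95 for the sum. The copies of 1 UTR thus did not move in equal measure in G4: the ratio of the B1_Mus2 to the B2_Mm1a copy was 0.96, 1.09 and 1.01 in WT, 0.96, 1.04 and 1.06 in G1 and 1.30, 1.44 and 1.45 in G4. The values of the B2_Mm1a and ID4_ copies are not all whole, so reads shared with other copies had been divided among them, and the annotation lists the pseudogenes Nanog-ps2 on chromosome 12 and Nanog-ps1 on X, while the B1_Mus2 values are whole.

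The introns of Nanog gave a different order. The 11 intronic copies summed to 52.1, 52.2 and 37.4 CPM in WT, 114.8, 123 and 113 in G1 and 76.9, 75.8 and 95.3 in G4. G1 was the highest group and none of the groups overlapped. The mean rose 2.48-fold from WT to G1, against 1.67-fold for the UTR, and the introns made up 3.67% of the UTR level in WT, 5.42% in G1 and 2.16% in G4. Among single copies, 4 of them, all on the opposite strand, rose in G1: B2_Mm2 at chr6:122711955-122712113 (log2 fold change 1.73, SE 0.45, adjusted p = 0.017), B1_Mur1 at chr6:122712195-122712288 (1.92, SE 0.47, adjusted p = 0.011), B3 at chr6:122712324-122712510 (1.26, SE 0.30, adjusted p = 0.0090) and PB1D9 at chr6:122712966-122713066 (1.87, SE 0.46, adjusted p = 0.011). They lie on low counts, and each lost its call in 2 or 3 of the 6 fits that left out 1 WT or G1 library, with adjusted p-values up to 0.080, 0.077, 0.077 and 0.074. The B3 copy was at 13.5, 15.7 and 10.6 CPM in WT, 27.1, 39.0 and 28.6 in G1 and 14.3, 21.01 and 18.9 in G4.

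**Figure D3:**
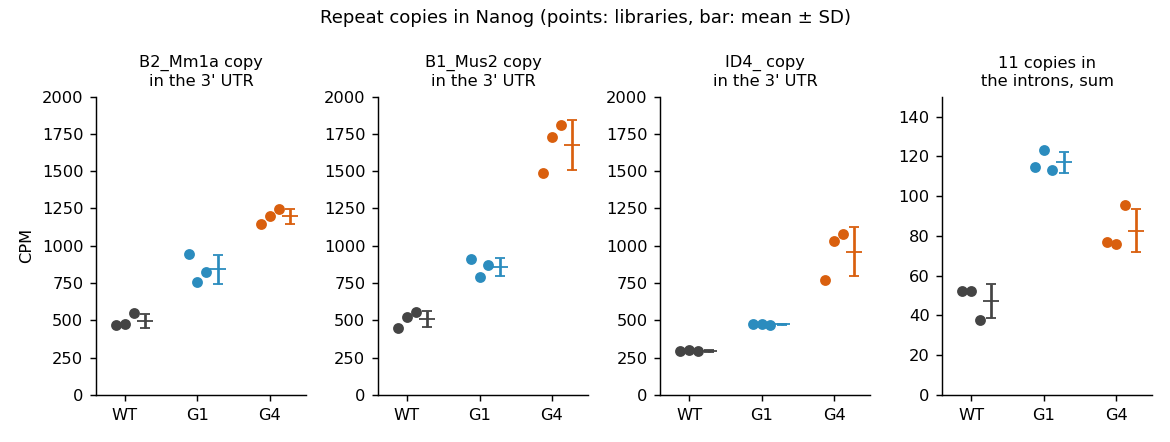
Level (CPM, vertical axes) of the 3 TE copies in the 3' UTR of Nanog and of the sum of the 11 copies in its introns, by group; points are libraries and bars are the mean ± SD of 3, and the fourth panel has its own scale. The UTR copies rise from WT to G1 to G4, whereas the intronic sum is highest in G1 (113 to 123 CPM).

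The neighbours of Nanog were less uniform. Of the 12 genes listed for the cluster 8 had exonic copies and 5 could be tested, and Dppa3, a maternal factor and naive pluripotency marker, was not among them. Beside Nanog, Gdf3, a growth factor of the TGF-beta family made by ESCs, rose from 92.7, 107 and 104.6 CPM in WT to 151, 128 and 136 in G1 (log2 fold change 0.45, SE 0.14, adjusted p = 0.026), and lay at 198, 216 and 218 in G4. The groups of Gdf3 did not overlap, but its G1 call was lost in 4 of 6 fits without 1 library, with adjusted p up to 0.14. Apobec1, a cytidine deaminase that edits RNA, was at 22.9, 35.5 and 23.0 CPM in WT, 51.1, 34.6 and 36.3 in G1 and 51.7, 81.3 and 69.2 in G4, with overlap between WT and G1 (0.58, SE 0.25, adjusted p = 0.14). Slc2a3, the glucose transporter GLUT3 just beyond Nanog, was at 176, 169 and 173 CPM in WT, 185, 207 and 223 in G1 and 213, 151 and 173 in G4 (0.25, SE 0.13, adjusted p = 0.22 in G1; 1.03-fold in G4). Mfap5, a microfibril protein, changed little beside its error in G1 (log2 0.14, SE 0.57, adjusted p = 0.92) and rests on few counts. So Nanog and Gdf3 rose in G1, and the log2 fold changes of the other 3 tested genes were above 0 but not past the test.

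At the level of genes, 9 of the 97 tested genes of the stretch rose in G1 and none fell by edgeR, where 3.95% of the 4681 genes tested rose and 7.37% fell. The median log2 fold change was 0.05 in the stretch and -0.02 on the other autosomes. Bcat1, the cytosolic transaminase of branched-chain amino acids, was at 316, 302 and 341 CPM in WT, 470, 441 and 493 in G1 and 1043, 1127 and 1171 in G4. Its G1 rise was 0.55 on the log2 scale (SE 0.09, adjusted p = 4.2e-06), its G4 fold over WT was 3.49, and the groups were far apart. The exonic B1F1 copy at chr6:144999710-144999863, carried most of these counts with 207, 175 and 204 CPM in WT and 300.5, 248.97 and 310 in G1.

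Etnk1, an ethanolamine kinase of phospholipid synthesis, showed another pattern, highest in G1. It was at 998, 973 and 868 CPM in WT, 1267, 1399 and 1324 in G1 and 1127, 1121 and 1164 in G4 (G1 log2 fold change 0.49, SE 0.07, adjusted p = 6.1e-07). Nearly all of it came from an RLTR42-int element in the 3' UTR, chr6:143203487-143204361, on the strand of the gene, which rose by the same measure (0.50, SE 0.08, adjusted p = 0.00014). The 3 groups of that element did not overlap. From copies with whole values alone, which leave out this element, the G1 call of Etnk1 was lost (0.36, adjusted p = 0.67).

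Resf1, a retroelement silencing factor that acts with histone H3K9 methylation, was at 204, 186 and 199 CPM in WT, 282, 234 and 297 in G1 and 257, 276 and 291 in G4 (G1 0.46, SE 0.11, adjusted p = 0.0027). Aebp2, a cofactor of the Polycomb complex PRC2, was at 174, 146 and 139 CPM in WT, 192, 221 and 235 in G1 and 188, 172 and 208 in G4 (0.50, SE 0.13, adjusted p = 0.0042). For both genes G1 lay above WT, and G1 and G4 overlapped.

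Rhno1, which takes part in the ATR checkpoint through the 9-1-1 clamp, rose in G1 but was lowest in G4. Its copies were at 120, 105.5 and 96.0 CPM in WT, 142, 175 and 177 in G1 and 62.7, 42.9 and 39.5 in G4 (G1 0.62, SE 0.15, adjusted p = 0.0034; G4 0.447-fold of WT). Of its counts 7.41% lie in copies shared with the exons of another gene. Tamm41, an enzyme of cardiolipin synthesis in mitochondria, went from 13.5, 6.27 and 16.3 CPM to 38.6, 22.2 and 24.2 in G1 (1.21, SE 0.34, adjusted p = 0.013), a call lost in 2 of 6 fits without 1 library. Ing4, a reader of histone methylation, had the largest G1 change of the 9 and the weakest call (1.29, SE 0.45, adjusted p = 0.049), lost in 5 of 6 fits without 1 library with adjusted p up to 0.41. Etnk1, Resf1, Aebp2 and Ing4 lie outside the naming rule and are named to complete the 9.

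A pair of intronic LINE copies outside the naming rule also rose in G1 and are named after their values were seen. The L1Md_T in Pde3a, chr6:141355962-141363037, was at 6.43, 4.53 and 5.88 CPM in WT, 27.1, 21.6 and 30.6 in G1 and 10.1, 7.50 and 4.57 in G4 (2.25, SE 0.40, adjusted p = 0.00049). L1Md_T is a young LINE-1 subfamily with members that can still move. The values of the copy in Pde3a are not all whole, so reads shared with other copies had been divided among them. The rise can therefore not be placed at this copy alone. The L1MC4 in Ybx3, chr6:131372512-131372901, belongs to an old subfamily and was at 10.4, 7.31 and 8.64 CPM in WT and 17.7, 22.2 and 37.4 in G1 (1.53, SE 0.41, adjusted p = 0.019), and its call was lost in 3 of 6 fits without 1 library, with adjusted p up to 0.16. Both were high only in G1 among the 3 groups, with the G4 libraries overlapping WT.

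MMETn elements are non-coding relatives of the MusD retroviruses and use the proteins of MusD to move. There were 19 MMETn-int copies, 8 of them tested, and in G1 1 rose and 1 fell. On the other autosomes 23 of 84 rose in G1 and none fell by edgeR, where 2.49% of all tested copies rose and 4.46% fell, and these copies summed to 30214 CPM in WT, to 44566 in G1 and to 21216 in G4. Values of the 8 tested copies of the stretch hold fractions, and how reads that fit several copies were divided is not stated in the sources used here.

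The long copy in an intron of Efcab12, chr6:115824607-115828990, had the most counts of any copy in the stretch. It was at 7004, 6136 and 5813 CPM in WT, 3954, 8174 and 8152 in G1 and 5391, 5531 and 6053 in G4. The groups overlapped, and the change was 0.10 on the log2 scale in G1 (SE 0.15, adjusted p = 0.79).

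The copy at chr6:124797831-124802214, 6447 bp from Spsb2, was instead highest in G1 and lowest in G4. Its values were 1082, 1038 and 1095 CPM in WT, 1550, 1554 and 1673 in G1 and 785, 635 and 696 in G4 (G1 0.57, SE 0.08, adjusted p = 3.7e-05; G4 0.658-fold of WT). The LTR pieces that adjoin it rose with it in G1: RLTR13G (0.72, SE 0.15, adjusted p = 0.0037), ERVB4_1C-LTR_Mm (0.85, SE 0.18, adjusted p = 0.0030) and RLTRETN_Mm (1.26, SE 0.22, adjusted p = 0.00042). They belong to the same insertion and are not further evidence.

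The copy at chr6:127514350-127520169, 20089 bp from Parp11, was low in WT and G1 and high in G4. It was at 62.9, 38.5 and 40.1 CPM in WT, 71.9, 62.4 and 61.8 in G1 and 1312, 1309 and 1288 in G4. The G4 mean was 27.6-fold that of WT in the fit, and the G1 difference of 0.47 did not pass the test (SE 0.16, adjusted p = 0.081). Its adjoining ERVB4_1C-LTR_Mm piece followed, with 0, 5.60 and 3.69 CPM in WT, 1.26, 1.13 and 0 in G1 and 62.8, 66.8 and 50.6 in G4. The RLTR13G piece beyond that was at 0, 0 and 3.27 CPM in WT, 0, 3.45 and 0 in G1 and 33.4, 114.7 and 48.5 in G4.

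A short MMETn-int piece behind these, chr6:127520561-127520648, was the 1 copy of the stretch that fell in G1 (log2 fold change -2.65, SE 0.77, adjusted p = 0.035). Its WT libraries were at 78.3, 68.9 and 2.70 CPM and its G1 libraries at 0, 4.69 and 20.1, so the groups overlapped, and the call was lost in 4 of 6 fits without 1 library. The copy at chr6:129059956-129064325, 2492 bp from Klrb1f, was at 3.41, 1.16 and 1.07 CPM in WT, 8.50, 2.48 and 3.84 in G1 and 37.9, 24.8 and 44.5 in G4. The long copy nearest to Etv6, chr6:134010006-134014401, was at 881, 709 and 631 CPM in WT, 690, 962 and 784 in G1 and 531, 836 and 619 in G4, with all groups overlapping. Thus 5 long copies of the same element gave 4 patterns: groups that overlap, highest in G1, high in G4 with WT and G1 low, and low but higher in G4.

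**Figure D4:**
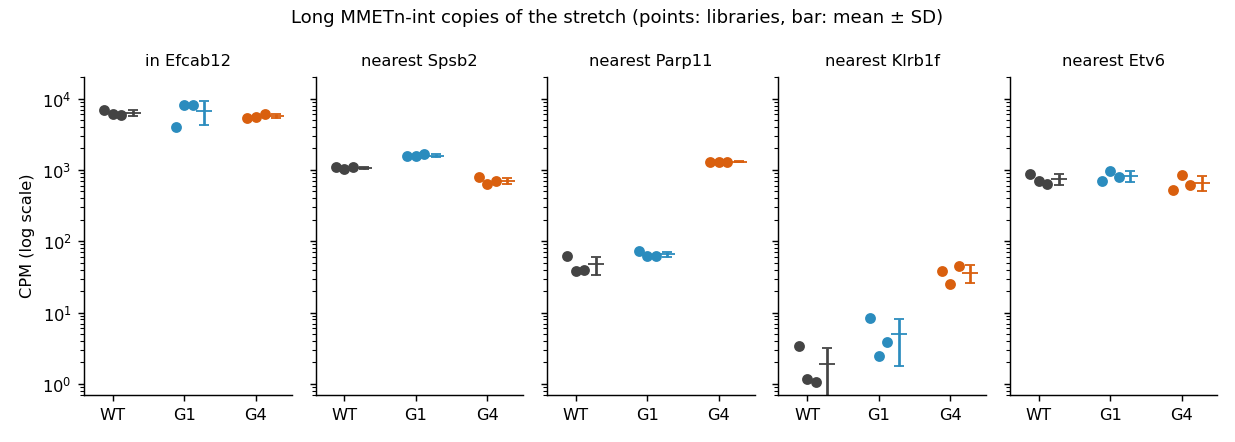
Level (CPM, log10 vertical axis) of the 5 long MMETn-int copies of the stretch by group, each panel named for the gene that holds the copy or lies nearest to it; points are libraries and bars are the mean ± SD of 3. The copy nearest Parp11 lies at 38.5 to 71.9 CPM in WT and G1 and at 1288 to 1312 in G4, while the copies in Efcab12 and nearest Etv6 overlap between groups.

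In G4 against WT, given as a description, 57 of the 221 tested copies were past the threshold upward and 27 downward (21.2% and 21.7% of all tested copies). The copies called upward lay at 34 places and those called downward at 14. The median log2 fold change was 0.24 in the stretch and -0.01 on the other autosomes. Of the 57, 46 were exonic, and 40 were SINEs, where 132 and 133 of the 221 tested copies were. On the other autosomes 1371 of the 2582 copies called upward were exonic and 1018 were SINEs. At the level of genes 35 of 97 were called upward and 15 downward (26.3% and 22.2% of all genes tested).

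Beside Bcat1, Nanog, Apobec1, Gdf3 and Tamm41, the largest rises by the naming rule were in Caprin2, an RNA-binding protein, with 9.37, 17.8 and 28.8 CPM in WT and 57.2, 61.2 and 43.1 in G4, and in Vamp1, a vesicle fusion protein, with 32.3, 29.2 and 30.7 CPM in WT and 74.7, 74.0 and 69.2 in G4. Their folds were 2.84 and 2.35. Ankrd26 was at 2.11-fold, Cmas, which activates sialic acid, at 2.02-fold and Ccdc77 at 2.01-fold of WT. Vamp1 in G1 lay at 27.1, 18.6 and 37.4 CPM, a range that spans that of WT.

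The largest falls in G4 were in Klhl42, an adaptor of a cullin ubiquitin ligase (29.2, 27.2 and 32.6 CPM in WT; 8.79, 8.22 and 14.4 in G4, 0.358-fold), and in Eps8, an actin-capping substrate of growth factor receptors (89.6, 102 and 95.03 CPM in WT; 30.8, 41.1 and 33.2 in G4, 0.369-fold). The zinc finger gene Zfp9 was at 0.400-fold and the interleukin receptor Il17ra at 0.412-fold, followed by Rhno1, by Phb2, a prohibitin of the inner mitochondrial membrane (0.599), by Dennd5b (0.687) and by Foxm1, a transcription factor of mitotic genes (0.721). For Dennd5b 29.9% of the counts lie in copies shared with another gene. Among single copies, 4 SINEs in a row within 5 kb of Ninj2, chr6:120200768-120201546, were at 0.332- to 0.536-fold of WT.

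**Figure D5:**
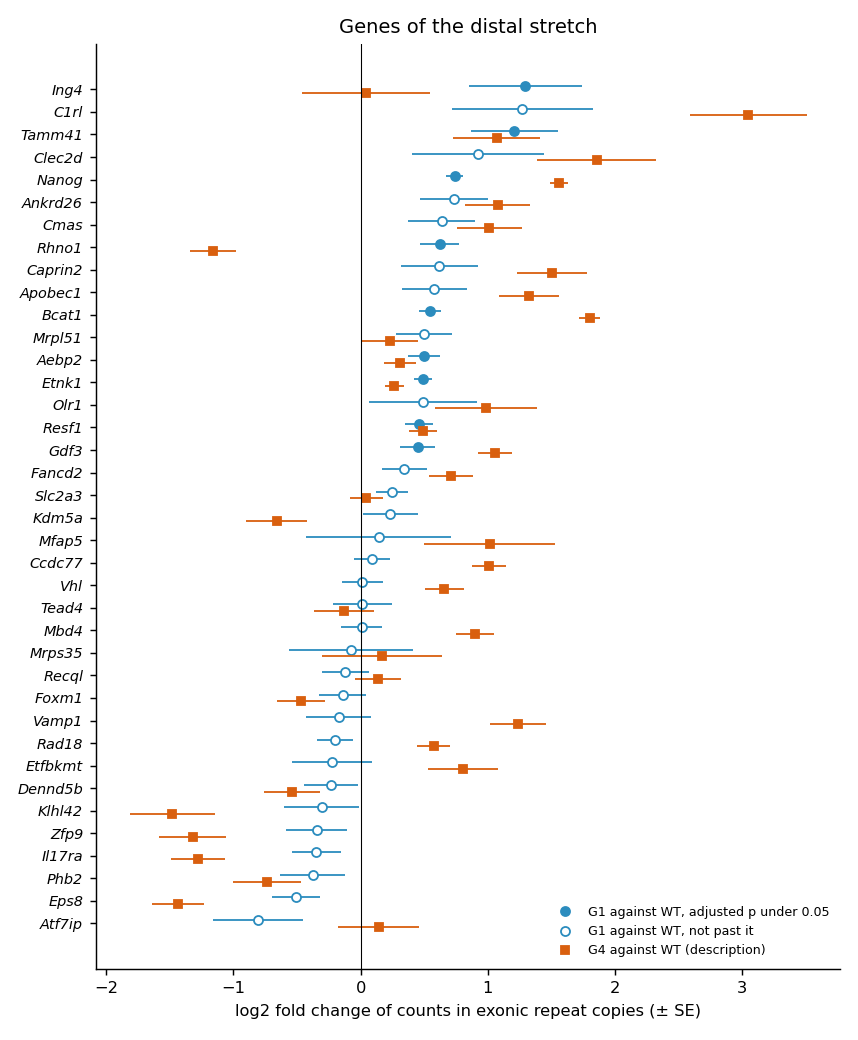
log2 fold change over WT of counts in exonic TE copies (horizontal axis; bars are ± SE from the fit over 9 libraries) for named genes of the stretch that hold most of these counts in copies of their own; circles are G1, filled where the adjusted p is under 0.05, and squares are G4, shown as a description. Nanog, Bcat1 and Gdf3 lie to the right in both, Rhno1 lies on opposite sides (0.62 and -1.16), and Vamp1, Mbd4 and Rad18 lie to the right in G4 only.

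The gene lists, picked with earlier results of these data known, were read through the same counts. Beside their counts stand the shares of all genes tested, 3.95% called upward and 7.37% downward in G1, and in G4, as a description, 26.3% and 22.2%. The DNA repair list is broad and holds Usp18 and Tigar, which are not repair enzymes. Of its 10 genes 8 were tested, and in G1 none was called by edgeR (median -0.01). In G4 3 were past the threshold upward and 1 downward: Rad18, a ubiquitin ligase of damage tolerance, went from 133 ± 20.6 CPM in WT to 198 ± 12.8, Mbd4, a glycosylase of mismatched thymine, from 85.5 ± 2.65 to 160 ± 15.4, and Fancd2 of the Fanconi pathway from 58.3, 64.8 and 59.5 CPM to 97.8, 103 and 98.0. Usp18, which removes ISG15 and was named after its values were seen, was the 1 downward, at 3.12, 19.8 and 19.2 CPM in WT and 4.40, 5.48 and 5.39 in G4. WT replicate 1 lay below every G4 library, so these groups overlapped. Recql, a helicase, was at 79.4 ± 12.2 in WT and 87.4 ± 24.4 CPM in G4. Of the counts of Mbd4 15.9% are shared with another gene.

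Of 19 cell cycle and growth signalling genes in the stretch 9 were tested, and in G1 none was called (median 0.01). In G4, Vhl, the oxygen-sensing ubiquitin ligase subunit, was upward (90.1 ± 10.3 to 142 ± 10.4 CPM) and Foxm1 downward. Of 18 chromatin and transcription genes 9 were tested: in G1 only Ing4 rose (median -0.14), and in G4 Mbd4 was upward while Zfp9, Foxm1 and the H3K4 demethylase Kdm5a (49.7 ± 7.89 to 32.0 ± 12.3 CPM) were downward. Of 12 metabolism genes in the stretch 4 were tested, Bcat1 alone was called in G1 and it alone lay past the threshold in G4, with Mrpl51, of the mitochondrial ribosome, 0.50 higher in G1 on the log2 scale (SE 0.22, adjusted p = 0.15). Of 28 natural killer receptors and lectins only Clec2d and Olr1 had enough counts to test, neither was called in G1 and both were upward in G4 (3.62- and 1.98-fold). None of 12 neural genes in the stretch could be tested.

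G4 against G1 shares its G4 libraries with the choice of the stretch and is likewise a description. Of 221 copies 45 were called upward and 37 downward (19.0% and 19.6% of all tested copies), and of 97 genes 29 upward and 15 downward (23.6% and 19.3% of all genes tested). Vamp1 (2.66-fold), Bcat1 (2.38-fold), Etfbkmt, a lysine methyltransferase of mitochondria (2.04-fold), and Atf7ip, a partner of the H3K9 methyltransferase SETDB1 (1.93-fold), were highest against G1 by the naming rule. Rhno1 (0.291-fold), Klhl42 (0.443-fold), Zfp9 (0.509-fold) and Il17ra (0.525-fold) were lowest. Atf7ip was at 16.7, 21.9 and 27.8 CPM in WT, 17.7, 12.4 and 7.70 in G1 and 30.8, 23.8 and 19.8 in G4. WT overlapped both other groups, and G1 and G4 did not overlap.

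The genes of the stretch whose exonic copies followed Nanog most closely over the 9 libraries, by Pearson correlation of log2 CPM, were Gdf3 (r = 0.994), Bcat1 (0.976), C1rl (0.951) and Fancd2 (0.943). C1rl, a complement-related protease, was at 4.17, 2.09 and 3.84 CPM in WT, 6.26, 9.75 and 8.80 in G1 and 28.6, 23.8 and 34.1 in G4. The 9 points form 3 groups, so these correlations describe mainly the order WT, G1, G4, and they share library and depth. For these 4 genes, C1rl and Fancd2 did not pass the test in G1 (adjusted p = 0.14 and 0.24), whereas Gdf3 and Bcat1 did.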

How the data were processed

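The table, as deposited by the authors, holds estimated counts per single TE copy for 623916 copies in 9 RNA-seq libraries (TruSeq RNA kit, total RNA). The submitters' processing notes name FastQC 0.11.9, STAR 2.5.3a, featureCounts and mm10. Values of 55092 copies, 641 of them in the stretch, hold fractions, and the sources used here do not state how reads that fit several copies were split. Columns named Control were taken as WT, and a second deposited table of normalized values was not used.

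Starts are printed 1-based. Copies were placed against GENCODE M21 gene models of the same assembly. Counts were rounded to whole numbers, filtered with filterByExpr, scaled by TMM and fitted over all 9 libraries with edgeR 4.0.16 (R 4.3.3) by the quasi-likelihood test for copies (13022 tested), for genes (the sum over exonic copies; 4681 tested) and for windows of 10 Mb (291). All tests are two-sided. Benjamini-Hochberg adjustment covered every feature of a level in each contrast, with 0.05 as the threshold. An SE was obtained by dividing the log2 fold change by the square root of F. Shares were compared by exact permutation over libraries. Depth limits the precision: with 918879 to 1137257 counts a library, most copies were too low to test. No pair of replicates agreed within sampling noise (chi-square per degree of freedom 1.59 to 2.27), which does not show separate cultures.

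Members and lists were chosen with earlier results of these data known. Copies named were those called, with a mean of at least 20 counts and no overlap between groups: for G4 against WT the top 8 in each direction, for the other contrasts the top 4, the 10 with the highest mean count, and those with a mean of at least 5 counts in or within 5 kb of Nanog, Dppa3, Gdf3, Apobec1 and Slc2a3. Genes followed the same criteria (top 10 and top 4), with all tested members of the Nanog cluster list, up to 4 of each other list and the 4 most like Nanog. The alternatives were DESeq2 (1.42.0), other scalings and filters, a replicate block, fits of 2 groups, each library left out, other starts of the stretch, only copies with whole values, only copies far from genes, and calls with a fold over 2. Leaving out the copy with the most counts, or the tested MMETn-int copies far from genes, was added after seeing the data. Promoter sequence came from RefSeq on GRCm38.p6 and the sequence in Gm10069 from the GENCODE transcripts. The genome sequence was not used here. 1 gene of the lists is not reported here.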

Additional observations from a re-analysis of the deposited data

How the results depend on the processing

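Only the difference of Etnk1 between G4 and G1 changed direction, to 0.0098 on the log2 scale from copies with whole values alone, which leave out its RLTR42-int element; no other result did under the alternatives run. With the 20 copies of highest count left out, other starts of the stretch, copies far from genes or whole-valued copies, the difference in the share of autosomal counts between G1 and WT ranged from 0.12 to 0.75 percentage points (0.40 reported), and from 0.32 to 0.54 without each library. The WT share differs between these settings. The ratio of G1 to WT means was 1.12 without the 20 copies, 1.20 for copies far from genes and 1.18 for all copies. Copies called in G1 against WT went from 19 of 221 tested to 3 of 25 among copies over 5 kb from any gene. They went to 9 of 155 among copies with whole values and to 8 of 221 with a fold over 2 as a further criterion. The first 2 settings keep fewer copies. Among copies far from genes, those called in G4 against WT went from 84 of 221 tested to 8 of 25. In G4 against G1 they went from 82 of 221 to 11 of 25. In the main fit 42.8% and 38.6% of all tested copies were called in these 2 contrasts. With a fold over 2, 51 of 221 were left in G4 against G1. Requiring a fold over 2 beside the adjusted p left 2 of 9 genes in G1 against WT, 31 of 50 in G4 against WT and 21 of 44 in G4 against G1. A fold over 2 with an unadjusted p under 0.05, applied to all 97 tested genes, gave 3, 31 and 21 in these contrasts. This rule can take in genes that were not called. Both rules left 0 windows in every contrast. Among copies far from genes 1 window was called in G1 against WT and 1 in G4 against G1. Without each library in turn, calls ranged over 14 to 20, 73 to 92 and 66 to 84 copies, 7 to 10, 43 to 52 and 39 to 48 genes, and 2 to 3, 2 to 2 and 2 to 4 windows in G1 against WT, G4 against WT and G4 against G1, with 4 windows without G1 replicate 1. Libraries of the same replicate number did not deviate together (correlations of deviations -0.017 to 0.020), so they share only a number. A replicate block gave 16, 81 and 78 copies, 8, 48 and 44 genes, 2, 2 and 3 windows in these contrasts, and p = 0.25 for a share difference of 0.40 by exact permutation within numbers, the smallest that 3 pairs allow. Of 1926 alternatives over 140 results of single copies and genes, 1729 kept their side of the threshold and 196 lost the call, 23 of them under DESeq2, 22 without WT replicate 3 and 6 under the replicate block.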
